A study of Homo sapiens with 6 samples.

Results

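Transforming growth factor beta (TGF-beta) ligands, their receptors, the SMAD proteins that carry the signal and the induced gene TGFBI were followed in HT1080, a line established from a human fibrosarcoma. The members were taken by symbol: all probe sets of the expression arrays whose single gene symbol was TGFB1, TGFB2, TGFBR1, TGFBR2, SMAD2, SMAD3, SMAD4, SMAD7 or TGFBI. That gave 20 probe sets of 9 genes, out of 19065 singly named probe sets of 11963 genes. Total RNA of 3 groups of 2 arrays had been measured: mock cells with the pGUS vector that expresses GFP alone, cells whose pGUS vector expresses GFP and an siRNA against MT1-MMP, and cells whose pGUS vector expresses GFP and an siRNA against integrin alpha3. All groups therefore share the parent line, the vector and GFP. Whether the transfected cells were clones or pools, and how long they carried the vector, is not given in the sources used here. The labels also leave unsaid whether the 2 arrays of each group stem from separate cultures. The p-values then cover no more than array-to-array spread, and this can be purely technical. The series title places the question in tumour vessel growth and tumour enlargement after loss of MT1-MMP.

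TGF-beta ligands are secreted dimers that stay latent in the matrix until proteases, integrins or thrombospondin release them. An active ligand binds the type II receptor TGFBR2, which phosphorylates the type I receptor TGFBR1, and TGFBR1 in turn phosphorylates SMAD2 and SMAD3. These join SMAD4 and enter the nucleus to regulate target genes, among them SMAD7, an inhibitor that shuts the receptors down again, and TGFBI, a secreted matrix protein that binds collagens and integrins. In connective tissue cells the pathway is known for driving matrix production.

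The values are array signals, linear intensities that had been scaled to a common level on every array before deposit. Differences between groups are given as log2 differences, taken on log2(signal + 32), an offset that understates the change of dim genes. Probe sets whose mean log2 value lay above the 40th percentile (a signal of about 47.5) were tested, and for each gene the brightest probe set stood for the gene in a limma fit of 8045 genes. All 9 members were among them, while 16 of their 20 probe sets passed the filter. A call is a Benjamini-Hochberg adjusted p under 0.05 over all 8045 genes. An exact permutation test of a single gene, 2 arrays against 2, cannot give a p below 0.333. In bulk RNA, fewer cells expressing a gene and less of its RNA per cell cannot be told apart.

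Median signals lay between 72.9 and 83.1 over the 6 arrays. All 6 mesenchymal marker genes passed the filter (lowest signal of a gene 291), all 4 epithelial markers lay below it (highest signal 29.3), and so did the defining endothelial genes CDH5 and TEK and the leukocyte genes PTPRC and CD14. The exceptions were the endothelial marker PECAM1 (48.6 to 108) and the T cell marker CD3E (61.5 to 107), which passed it at low signals, and their part in the results was not tested. MMP14, which encodes MT1-MMP, and ITGA3, which encodes integrin alpha3, had their lowest mean signals with their own siRNA. There the log2 differences from mock were -1.65 for MMP14 (SE 0.31) and -2.25 for ITGA3 (SE 0.32). Neither passed the threshold against mock (limma adjusted p = 0.139 for MMP14 and 0.136 for ITGA3). Between the siRNAs, ITGA3 passed it (limma adjusted p = 0.0232) and MMP14 did not (0.173). Under alpha3 siRNA, MMP14 differed from mock by a log2 value of -0.86 (SE 0.31, limma adjusted p = 0.851), which became -0.44 when alpha3 siRNA replicate 1 was left out and -1.27 when replicate 2 was. The 18 hybridisation controls gave more signal in the MT1-MMP siRNA group, at median folds of 2.30 and 1.29 over the mock mean, against 0.812 and 0.841 with alpha3 siRNA, and their part in the differences between groups was not tested.

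Promoter sequences of RefSeq (GRCh38.p14) were matched by symbol for all 9 genes, in 24 windows that count alternative start sites. The 250 bases before the start site are shown 5′ to 3′ on the gene's own strand for TGFBR2, whose signal differed between the siRNAs, for the ligands TGFB1 and TGFB2, which lay above mock with both siRNAs, and for SMAD7, a SMAD target whose signals ran opposite to those of TGFBR2. Capitals mark AGAC or GTCT, the same SMAD box read on either strand, and GGGCGG or CCGCCC, the GC box bound by SP1 read on either strand. SMAD7 carries a GTCT directly after an AGAC, so those capitals run together. TGFBR2 has 2 listed start sites, and both windows are shown because they overlap at their ends.
TGFBR2, first listed start, chr3:30606106-30606355, plus strand: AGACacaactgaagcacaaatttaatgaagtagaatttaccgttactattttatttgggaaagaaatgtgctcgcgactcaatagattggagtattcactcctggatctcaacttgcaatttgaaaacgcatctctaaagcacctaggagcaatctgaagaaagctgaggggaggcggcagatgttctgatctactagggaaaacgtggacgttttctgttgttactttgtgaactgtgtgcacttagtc
TGFBR2, next listed start, chr3:30606351-30606600, plus strand: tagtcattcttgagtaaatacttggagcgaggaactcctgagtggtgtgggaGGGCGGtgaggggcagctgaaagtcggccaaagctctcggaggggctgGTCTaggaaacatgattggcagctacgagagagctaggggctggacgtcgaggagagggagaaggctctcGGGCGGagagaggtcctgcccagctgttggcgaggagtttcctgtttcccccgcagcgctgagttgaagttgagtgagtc
TGFB1, chr19:41353923-41354172, minus strand: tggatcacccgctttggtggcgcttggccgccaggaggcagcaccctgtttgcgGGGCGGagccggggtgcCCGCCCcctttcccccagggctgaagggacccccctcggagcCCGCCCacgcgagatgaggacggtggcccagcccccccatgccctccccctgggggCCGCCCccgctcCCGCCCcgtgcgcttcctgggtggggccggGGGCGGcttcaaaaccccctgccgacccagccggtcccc
TGFB2, chr1:218345086-218345335, plus strand: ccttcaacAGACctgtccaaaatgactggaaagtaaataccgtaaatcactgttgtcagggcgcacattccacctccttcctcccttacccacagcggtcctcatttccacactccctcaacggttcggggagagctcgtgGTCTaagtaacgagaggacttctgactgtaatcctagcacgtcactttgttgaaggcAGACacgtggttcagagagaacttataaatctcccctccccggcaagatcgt
SMAD7, first of 3 listed starts, chr18:48950966-48951215, minus strand: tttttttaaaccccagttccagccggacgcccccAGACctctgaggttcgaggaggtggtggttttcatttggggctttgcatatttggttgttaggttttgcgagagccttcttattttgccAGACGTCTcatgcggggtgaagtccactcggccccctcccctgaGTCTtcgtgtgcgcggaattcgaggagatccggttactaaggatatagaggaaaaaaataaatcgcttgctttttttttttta

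The TGFB1 window was GC-rich (76.8% G or C) and held 6 GC boxes and 0 SMAD boxes. The TGFB2 window (50.4% G or C) held 3 SMAD boxes and 0 GC boxes, so the promoters of the ligands differ in these letters. The SMAD7 window shown held 4 SMAD boxes and 0 GC boxes, and those of its other listed starts held 5 and 1 SMAD boxes. Each TGFBR2 window held 1 SMAD box, and only the window of the next listed start held GC boxes, 2 of them. Such short motifs are common: of 35116 RefSeq windows of this length, 77.5% held a SMAD box and 42.6% a GC box. Of the 24 member windows, 17 held a SMAD box and 11 a GC box. The full palindrome GTCTAGAC, which joins both orientations of the box and so overlaps them, was in 0.2% of all windows and in 0 of the 24 member windows. Binding was not measured on these arrays, so the letters are given as context only.

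The ligands had higher signals with each siRNA than in mock cells, but did not pass the threshold. TGFB1, the most widely expressed ligand of the family, had signals of 358 and 781 in mock cells, 1042 and 1078 under MT1-MMP siRNA, and 959 and 793 under alpha3 siRNA. All 4 siRNA arrays lay above both mock arrays, although mock replicate 2 nearly reached the lower alpha3 siRNA array and the mock pair itself spanned 2.18-fold. The log2 difference from mock was 0.96 with MT1-MMP siRNA (SE 0.32, limma adjusted p = 0.248) and 0.68 with alpha3 siRNA (SE 0.32, adjusted p = 0.855). Those values rested on mock replicate 1: without it they were 0.43 and 0.15, and without mock replicate 2 they were 1.49 and 1.22.

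TGFB2, a second ligand of the same receptors, had signals of 50.8 and 52.7 in mock cells, 170 and 114 under MT1-MMP siRNA, and 126 and 107 under alpha3 siRNA. Here the mock arrays lay close together and every siRNA array was above them, while the siRNA groups overlapped each other. The log2 difference was 1.04 with MT1-MMP siRNA (SE 0.24, 95% interval 0.49 to 1.58, limma adjusted p = 0.164) and 0.82 with alpha3 siRNA (SE 0.24, 95% interval 0.28 to 1.37, adjusted p = 0.833). Leaving out 1 array at a time kept the first between 0.80 and 1.27 and the other between 0.73 and 0.92. Averaging the TGFB2 probe sets above the filter lowered them to 0.55 and 0.41. Both comparisons share the mock arrays, so the higher ligand signals with both siRNAs are not separate observations. Between the siRNAs, TGFB1 differed by 0.27 (95% interval -0.46 to 1.00) and TGFB2 by 0.21 (95% interval -0.33 to 0.76).

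**Figure D1:**
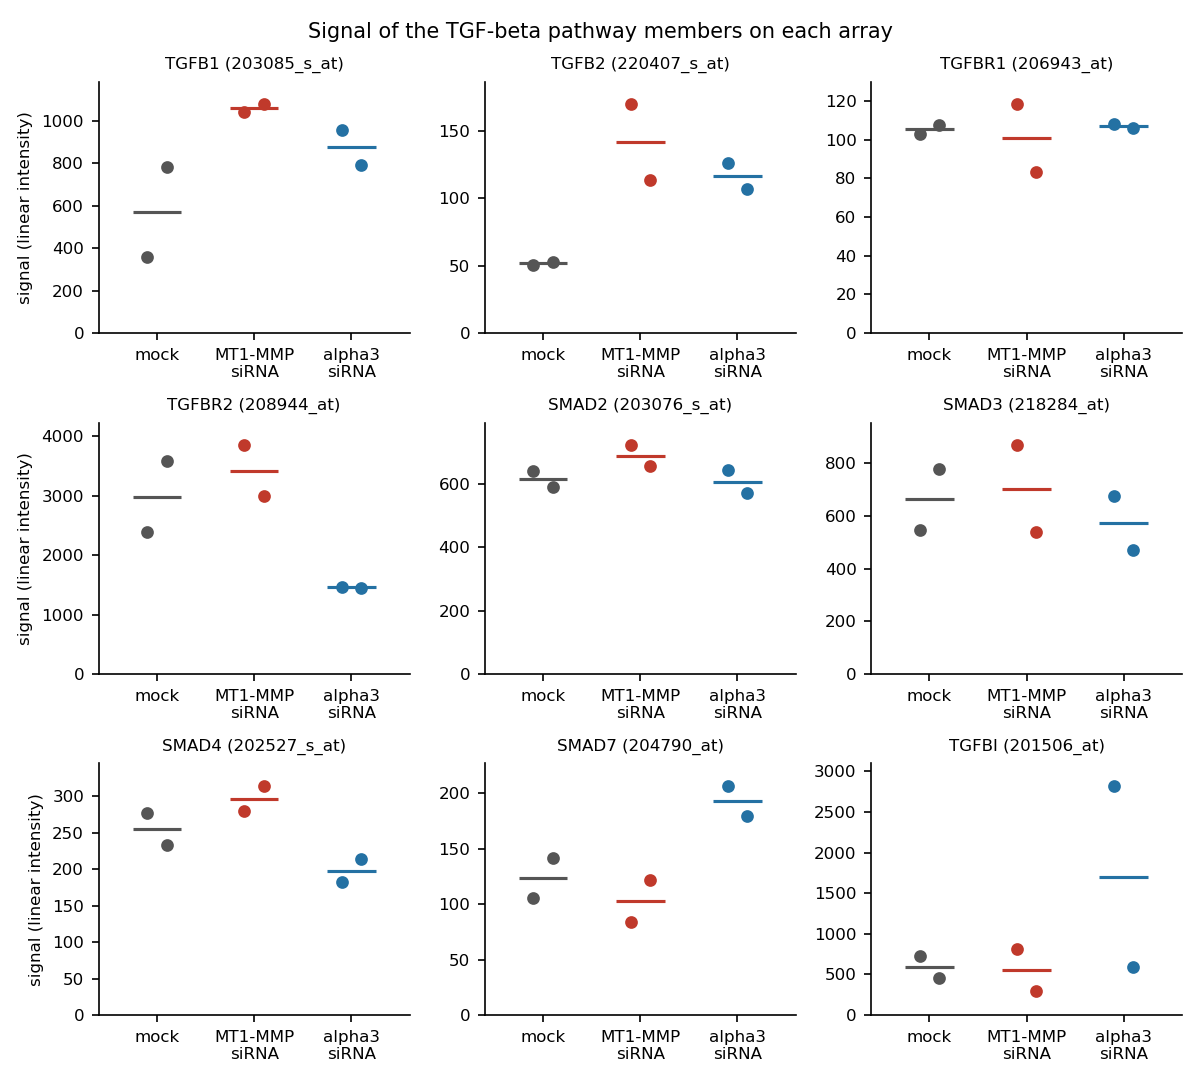
Signal of the brightest probe set of each gene (linear intensity, y axis from 0) on the 6 arrays, by group on the x axis; points are arrays and lines are group means of 2 arrays. TGFBR2 had both alpha3 siRNA arrays near 1460 and below all others, TGFB2 had both mock arrays near 51.8 and below all others, and TGFBI had a single high array at 2815.

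Of the receptors, TGFBR2 was the member that separated the siRNA groups. Its signals were 2386 and 3583 in mock cells, 3846 and 2993 under MT1-MMP siRNA, and 1468 and 1452 under alpha3 siRNA. The alpha3 siRNA arrays agreed within 1.01-fold and lay below the other 4 arrays, whereas the mock and MT1-MMP siRNA arrays overlapped. TGFBR2 was higher with MT1-MMP siRNA than with alpha3 siRNA by 1.20 on the log2 scale (SE 0.23, 95% interval 0.68 to 1.72, limma adjusted p = 0.0475), a 2.30-fold difference. It was the only member called in any of the 3 comparisons, 1 of 9 members against 1.39% of all genes (112 of 8045; 0.82% higher with MT1-MMP siRNA and 0.572% lower) in this comparison. Against mock, alpha3 siRNA gave a log2 difference of -0.99 (SE 0.23, 95% interval -1.51 to -0.47, adjusted p = 0.714) and MT1-MMP siRNA one of 0.21 (SE 0.23, adjusted p = 0.705).

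The dimmer probe set of TGFBR2 had signals of 247 and 389 in mock cells, 462 and 400 under MT1-MMP siRNA, and 249 and 90.4 under alpha3 siRNA. It gave log2 differences of 1.32 between the siRNAs, -0.88 for alpha3 siRNA against mock and 0.43 for MT1-MMP siRNA against mock, the same directions as the brighter probe set. Its alpha3 siRNA arrays differed 2.76-fold, and the upper of them lay within the mock range. In a fit of every probe set on its own, the brighter probe set passed between the siRNAs (adjusted p = 0.0482) and the dimmer one did not (adjusted p = 0.0987).

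The call on TGFBR2 lay close to the threshold. Its log2 difference between the siRNAs stayed between 1.02 and 1.38 in all 17 alternatives, and its adjusted p ranged from 0.0447 to 0.268, past the threshold in 7 of them. The call was lost without MT1-MMP siRNA replicate 1 (adjusted p = 0.268) or replicate 2 (0.0719), without alpha3 siRNA replicate 1 (0.0846) or replicate 2 (0.143), and, among the other settings, most clearly without a filter (0.0857). Leaving out an array leaves its group with 1, which the fit assumes to vary like the others.

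**Figure D2:**
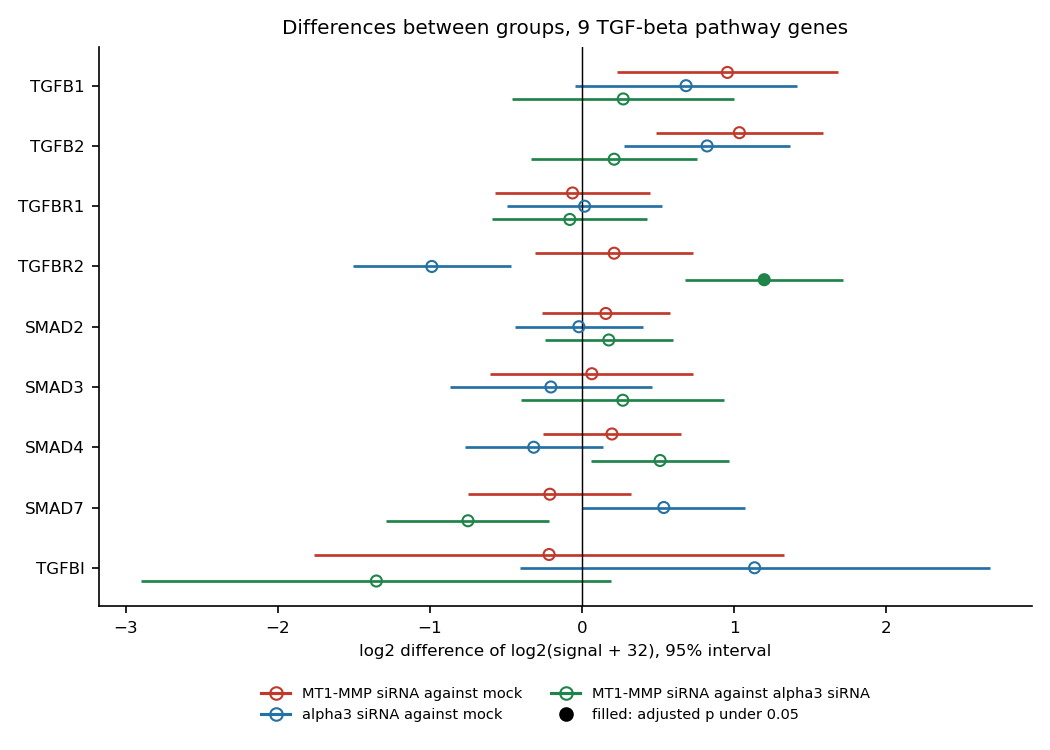
Log2 differences (x axis, on log2(signal + 32)) with 95% intervals from the limma fit for the 9 genes in the 3 comparisons, 2 arrays per group; a filled point marks an adjusted p under 0.05. TGFBR2 between the siRNAs, at 1.20, is the filled point, and the interval of TGFBI is the widest.

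**Figure D3:**
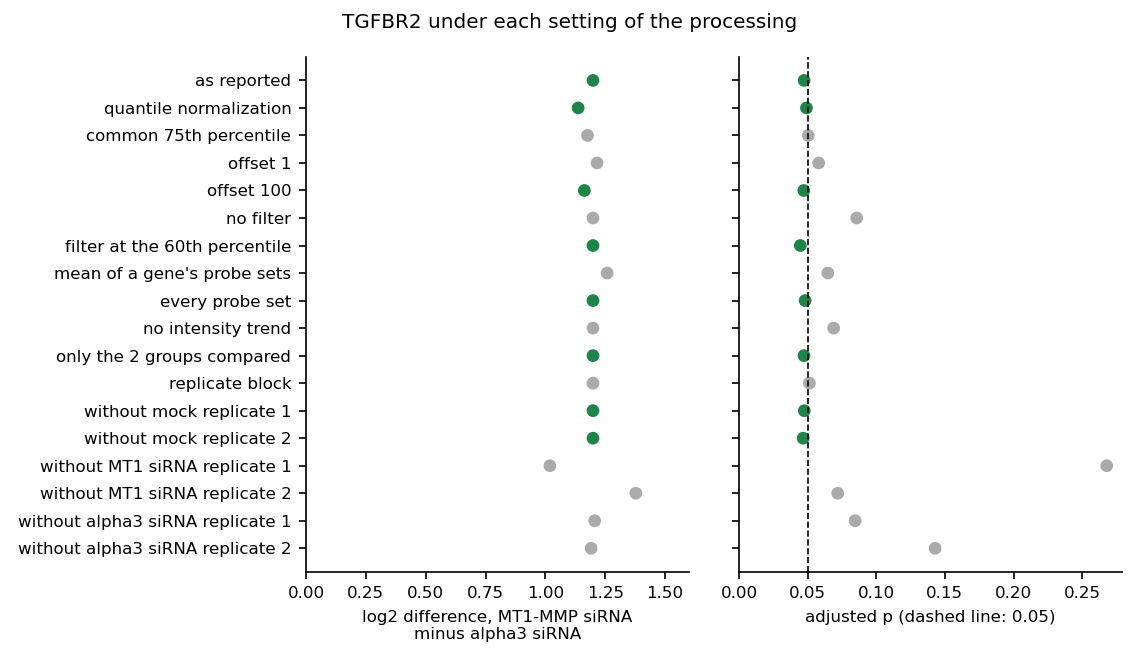
TGFBR2 between MT1-MMP siRNA and alpha3 siRNA under each setting (rows): the log2 difference (left) and the adjusted p with a dashed line at 0.05 (right); green points pass and grey points do not. The difference keeps to 1.02 to 1.38, while the adjusted p lies on both sides of the line.

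TGFBR1, the kinase that phosphorylates SMAD2 and SMAD3, did not separate the groups. Its single probe set had signals of 103 and 108 in mock cells, 118 and 83.4 under MT1-MMP siRNA, and 108 and 106 under alpha3 siRNA. The MT1-MMP siRNA arrays lay on either side of all the others. The log2 differences from mock were -0.06 with MT1-MMP siRNA (95% interval -0.57 to 0.45) and 0.02 with alpha3 siRNA (95% interval -0.49 to 0.53), so these arrays leave room for a change of that size in either direction.

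The SMADs that receive the signal, SMAD2 and SMAD3, differed little from mock. SMAD2 had signals of 640 and 589 in mock cells, 722 and 657 under MT1-MMP siRNA, and 643 and 570 under alpha3 siRNA. Its log2 differences from mock were 0.16 (95% interval -0.26 to 0.58) and -0.02 (95% interval -0.44 to 0.40). The other SMAD2 probe sets were at -0.27 and 0.35 with MT1-MMP siRNA, so there the probe sets of this gene disagreed in sign. With alpha3 siRNA both lay below the brightest one, at -0.37 and -0.23, and on both the alpha3 siRNA arrays lay below the mock arrays without overlap.

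SMAD3 had signals of 548 and 778 in mock cells, 867 and 540 under MT1-MMP siRNA, and 675 and 469 under alpha3 siRNA. The arrays of all 3 groups overlapped. Its 4 probe sets gave log2 differences between -0.15 and 0.18 with MT1-MMP siRNA and between -0.21 and 0.05 with alpha3 siRNA, with 0 in both ranges. On all 4 probe sets mock replicate 2 was above mock replicate 1 and MT1-MMP siRNA replicate 1 above replicate 2, so the spread within a group was shared by the probe sets.

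SMAD4, the common partner of the receptor SMADs, had its lowest signals with alpha3 siRNA on its brightest probe set, but did not pass the threshold. Its signals were 277 and 233 in mock cells, 280 and 314 under MT1-MMP siRNA, and 183 and 214 under alpha3 siRNA. The 3 groups did not overlap, in the order MT1-MMP siRNA, mock and alpha3 siRNA, although the neighbouring arrays of the first pair lay at 280 and 277. The log2 difference was 0.20 with MT1-MMP siRNA against mock (SE 0.20, limma adjusted p = 0.686), -0.32 with alpha3 siRNA against mock (SE 0.20, adjusted p = 0.888) and 0.51 between the siRNAs (SE 0.20, adjusted p = 0.171). A dim second probe set of SMAD4, below the filter, had signals between 21.3 and 42.8 with the groups overlapping.

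SMAD7, the inhibitory SMAD, ran the other way. It had signals of 106 and 141 in mock cells, 84.3 and 122 under MT1-MMP siRNA, and 206 and 180 under alpha3 siRNA. Both alpha3 siRNA arrays lay above the other 4, and the mock and MT1-MMP siRNA arrays overlapped. The log2 difference from mock was 0.54 with alpha3 siRNA (SE 0.23, 95% interval 0.00 to 1.07, limma adjusted p = 0.855) and -0.21 with MT1-MMP siRNA (SE 0.23, adjusted p = 0.719), and the siRNAs differed by -0.75 (SE 0.23, adjusted p = 0.114). With alpha3 siRNA the receptor TGFBR2 and SMAD4 thus had their lowest and SMAD7 its highest mean signals. Over the 6 arrays SMAD7 correlated with TGFBR2 at r = -0.81 and with SMAD4 at r = -0.86. These are the lowest values among all pairs of members, and a description of 6 arrays in 3 groups.

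TGFBI, the matrix protein that TGF-beta induces, was the most variable member. Its signals were 723 and 454 in mock cells, 807 and 292 under MT1-MMP siRNA, and 2815 and 590 under alpha3 siRNA. The alpha3 siRNA arrays differed 4.77-fold, and replicate 2 lay between the mock arrays. The log2 difference with alpha3 siRNA was 1.14 (SE 0.67, 95% interval -0.41 to 2.68, limma adjusted p = 0.877), which moved to 0.04 on leaving out alpha3 siRNA replicate 1 and to 2.23 on leaving out replicate 2. With MT1-MMP siRNA it was -0.22 (SE 0.67, adjusted p = 0.919).

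**Figure D4:**
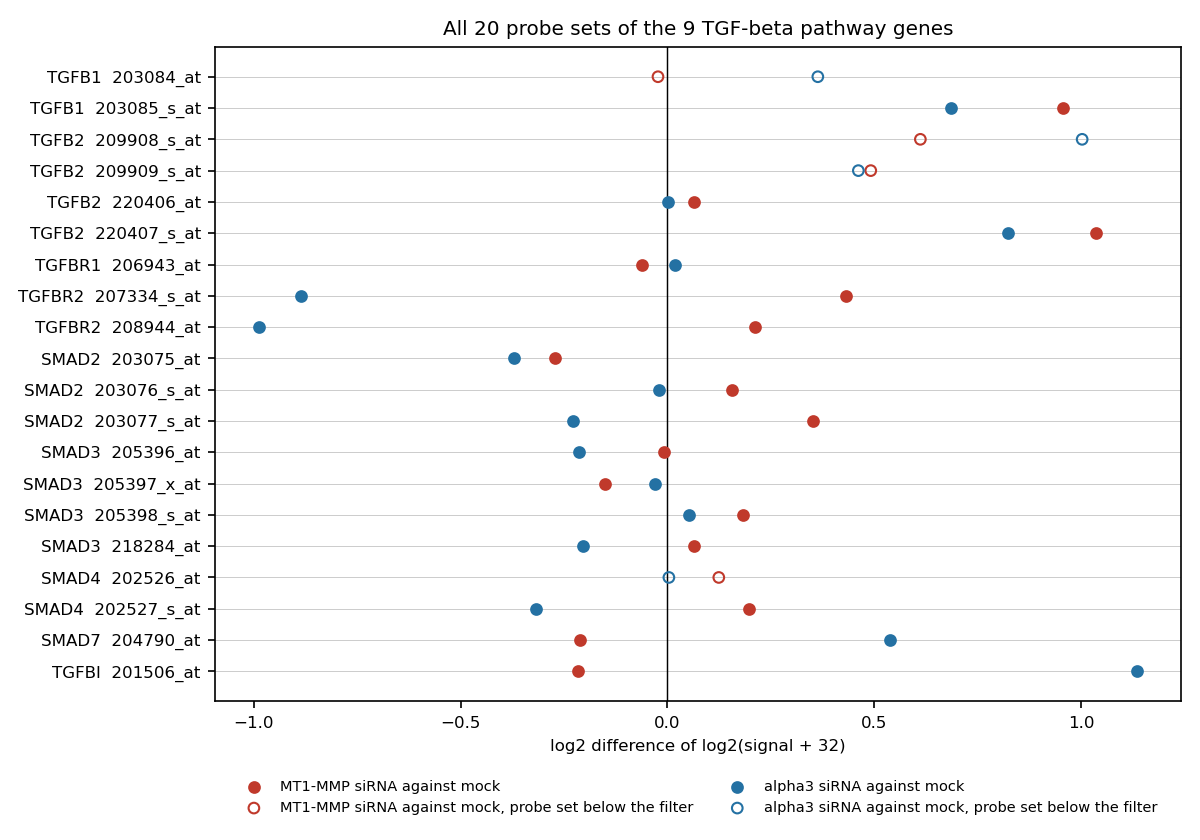
Log2 differences from mock (x axis, on log2(signal + 32)) for all 20 probe sets (rows) with MT1-MMP siRNA (red) and alpha3 siRNA (blue); open points are probe sets below the filter, which were not tested. Both TGFBR2 probe sets lie near -0.9 with alpha3 siRNA, and the 4 TGFB2 probe sets range from 0.00 to 1.04.

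Probe sets of the ligands did not all show the ligand result. Of the 4 probe sets of TGFB2, the next brightest was flat, with signals between 42.6 and 67.6 and log2 differences of 0.07 under MT1-MMP siRNA and 0.00 under alpha3 siRNA. The other TGFB2 probe sets, below the filter, gave 0.61 and 0.49 under MT1-MMP siRNA and 1.00 and 0.46 under alpha3 siRNA. TGFB1's second probe set was dim on all arrays, at 5.7 to 39.2, and was not tested.

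Over the 9 members, limma called 0 when MT1-MMP siRNA was set against mock, where 0% of all genes were called. An unadjusted p under 0.05 was reached by 2 members, both higher (TGFB1 and TGFB2), which is 22.2% of the members against 14.4% of all genes (6.76% higher and 7.66% lower). The arrays did not overlap for 4 members, all higher (TGFB1, TGFB2, SMAD2 and SMAD4), 44.4% of the members against 49.9% of all genes (24.6% higher and 25.3% lower), so that share was near the background. With alpha3 siRNA set against mock, 0 members were called, against 0.0249% of all genes. There 3 members had an unadjusted p under 0.05 (TGFB2 and SMAD7 higher, TGFBR2 lower), 33.3% against 5.73% of all genes (2.51% higher and 3.22% lower). The arrays did not overlap for 5 members, 3 higher (TGFB1, TGFB2 and SMAD7) and 2 lower (TGFBR2 and SMAD4), 55.6% against 34.4% of all genes (16.4% higher and 18% lower). Between the siRNAs, 3 members had an unadjusted p under 0.05 (TGFBR2 and SMAD4 higher with MT1-MMP siRNA, SMAD7 lower), 33.3% against 23.4% of all genes (11.7% in each direction). The arrays did not overlap there for 5 members (TGFB1, TGFBR2, SMAD2 and SMAD4 higher, SMAD7 lower), 55.6% against 53.9% of all genes (28% higher and 25.9% lower), again near the background. The median log2 difference of the members was 0.16 for MT1-MMP siRNA against mock and 0.02 for alpha3 siRNA against mock, beside 0.00 and -0.01 over all genes. The members were chosen with earlier results of these data known. Their shares beside those of all genes are therefore no independent evidence in any of the 3 comparisons.

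For the 6 members whose log2 values varied more over the arrays than the median gene, the genes most alike in pattern were taken by Pearson's r over the 6 arrays. TGFBR2 was closest to PFKFB4, a regulator of glycolysis (r = 0.996), and to STC1, a secreted glycoprotein hormone (r = 0.994), and 52 genes had r above 0.95 with it. STC1 had signals of 3390 and 5561 in mock cells, 5598 and 4458 under MT1-MMP siRNA, and 1531 and 1722 under alpha3 siRNA, low on the same arrays as TGFBR2. SMAD7 was closest to SERP1 and SNX11 (r = 0.995 and 0.989), TGFB1 to SIGLEC1 and GSTM3 (0.988 and 0.987), TGFB2 to FRAT1 and ACTMAP (0.993 and 0.982), SMAD3 to TRIM16 and ARG2 (0.994 and 0.987), and TGFBI to SENP5 and ARL6IP4 (0.986 and 0.985). Between 13 and 22 genes had r above 0.95 with each of these 5 members. With only 6 arrays, unrelated genes can also reach such values, and how many would do so was not tested. The named genes were picked as the highest r among all genes, so these values describe the arrays and are no evidence of shared regulation.

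The rest of the pathway was read from lists of 80 genes by role, of which 60 passed the filter. These lists were chosen with earlier results of these data known, so their shares and directions below are no independent evidence. In limma 0 of the 60 were called in any of the 3 comparisons. With MT1-MMP siRNA against mock, 8 of the 60 had an unadjusted p under 0.05, all higher (13.3% against 14.4% of all genes), and 30 did not overlap, 23 higher and 7 lower (50.0% against 49.9%). With alpha3 siRNA against mock, 4 higher and 3 lower genes had an unadjusted p under 0.05 (11.7% against 5.73%), and 12 higher and 12 lower genes did not overlap (40.0% against 34.4%). Between the siRNAs, 11 genes higher with MT1-MMP siRNA and 3 lower had an unadjusted p under 0.05 (23.3% against 23.4%), and 20 higher and 8 lower genes did not overlap (46.7% against 53.9%). The median log2 difference of the 60 genes was 0.12 under MT1-MMP siRNA and -0.01 under alpha3 siRNA against mock, and 0.10 between the siRNAs.

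Among genes of the latent complex, activation and decoys, 8 of 12 lay above mock without overlap and 0 below with MT1-MMP siRNA, 66.7% of the list against 49.9% of all genes (24.6% higher and 25.3% lower), with a median of 0.37. THBS1, a matrix glycoprotein that activates latent TGF-beta, had 204 and 242 in mock cells, 590 and 762 under MT1-MMP siRNA, and 1251 and 589 under alpha3 siRNA. Its log2 difference was 1.47 under MT1-MMP siRNA and 1.81 under alpha3 siRNA (limma adjusted p = 0.164 and 0.280), and its 5 probe sets ranged from 0.01 to 1.87 and from -0.16 to 2.08. In the latter comparison it became 1.29 when alpha3 siRNA replicate 1 was left out, and it passed the threshold when replicate 2 was (2.34, adjusted p = 0.0323). With alpha3 siRNA 5 of the 12 genes of this list lay above mock without overlap and 1 below, 50.0% against 34.4% of all genes (16.4% higher and 18% lower), with a median of 0.04. Of the 4 other ligands above the filter, the 6 other receptors and coreceptors and the 4 genes of the MAP kinase arm, 0 had an unadjusted p under 0.05 against mock with either siRNA.

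Of the target genes that TGF-beta raises, 9 of 16 lay above mock without overlap with MT1-MMP siRNA and 2 below, 68.8% against 49.9% of all genes (24.6% higher and 25.3% lower), with a median of 0.35. FN1, the matrix protein fibronectin, had 1869 and 5529 in mock cells against 12635 and 9354 (log2 difference 1.75, limma adjusted p = 0.228), and the value was 0.97 without mock replicate 1. CCN2, a matricellular growth factor, had 485 and 579 in mock cells against 1231 and 1302 (1.21, adjusted p = 0.260), and TSC22D1, a transcriptional regulator, had 960 and 1655 against 2548 and 3040 (1.12, adjusted p = 0.220), which was 0.74 without mock replicate 1. The target list was chosen with earlier results of these data known. Its direction and shares are therefore no independent evidence, in this comparison or in the 2 below.

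With alpha3 siRNA the same 16 targets were divided, 4 above mock without overlap and 4 below, 50.0% against 34.4% of all genes (16.4% higher and 18% lower), with a median of -0.02. On the higher side, CCN2 had 608 and 1803 (log2 difference 0.95, limma adjusted p = 0.855), which was 0.19 without alpha3 siRNA replicate 2, and the smooth muscle gene TAGLN had 28.6 and 51.9 in mock cells against 263 and 57.3 (1.19), which was 0.32 without alpha3 siRNA replicate 1. IL11, a cytokine of the interleukin 6 family, had 138 and 95.3 against 301 and 184 (0.86, adjusted p = 0.851), which was 0.55 without alpha3 siRNA replicate 1, and its other probe set was at -0.03. On the lower side, LOX, the enzyme that crosslinks collagen and elastin, had 616 and 2853 in mock cells against 518 and 273 (-1.74, adjusted p = 0.851), which was -0.66 without mock replicate 2. SNAI2, a repressor of epithelial genes, had 755 and 685 against 195 and 481 (-1.14, adjusted p = 0.847), which was -0.55 without alpha3 siRNA replicate 1. ITGA5, a fibronectin receptor subunit, had 1014 and 1400 against 877 and 703 (-0.58, adjusted p = 0.851), which was -0.36 without mock replicate 2.

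Between the siRNAs, 7 of the 16 targets were higher with MT1-MMP siRNA and 1 was lower at an unadjusted p under 0.05, 50.0% of the list against 23.4% of all genes (11.7% in each direction). The arrays did not overlap for 9 higher and 2 lower targets, 68.8% against 53.9% of all genes, and the list's median was 0.61 beside 0.02 over all genes. The target lower at that unadjusted p was IL11 (-1.44, limma adjusted p = 0.0534), whose other probe set was at -0.50. On the higher side, the lowest adjusted p was that of ACTA2, the smooth muscle actin (1.24, adjusted p = 0.0543). Both were named here after their values were seen. With a filter at the 60th percentile these 2 genes passed the threshold.

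SKIL, a nuclear repressor of SMADs that the pathway itself induces, had log2 differences of -0.29 under MT1-MMP siRNA and 0.06 under alpha3 siRNA (limma adjusted p = 0.633 and 0.981). The signals of SKIL were 55.0 and 64.3 in mock cells, 44.7 and 41.2 under MT1-MMP siRNA, and 52.4 and 75.5 under alpha3 siRNA. They lay near the filter, where the offset understates a change. PMEPA1, an induced inhibitor of SMAD2 and SMAD3, lay below the filter and was not tested. PMEPA1 signals were 23.9 and 5.8 in mock cells, 21.5 and 18.5 under MT1-MMP siRNA, and 164 and 75.3 under alpha3 siRNA, so the alpha3 siRNA arrays were the highest, as for SMAD7.

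**Figure D5:**
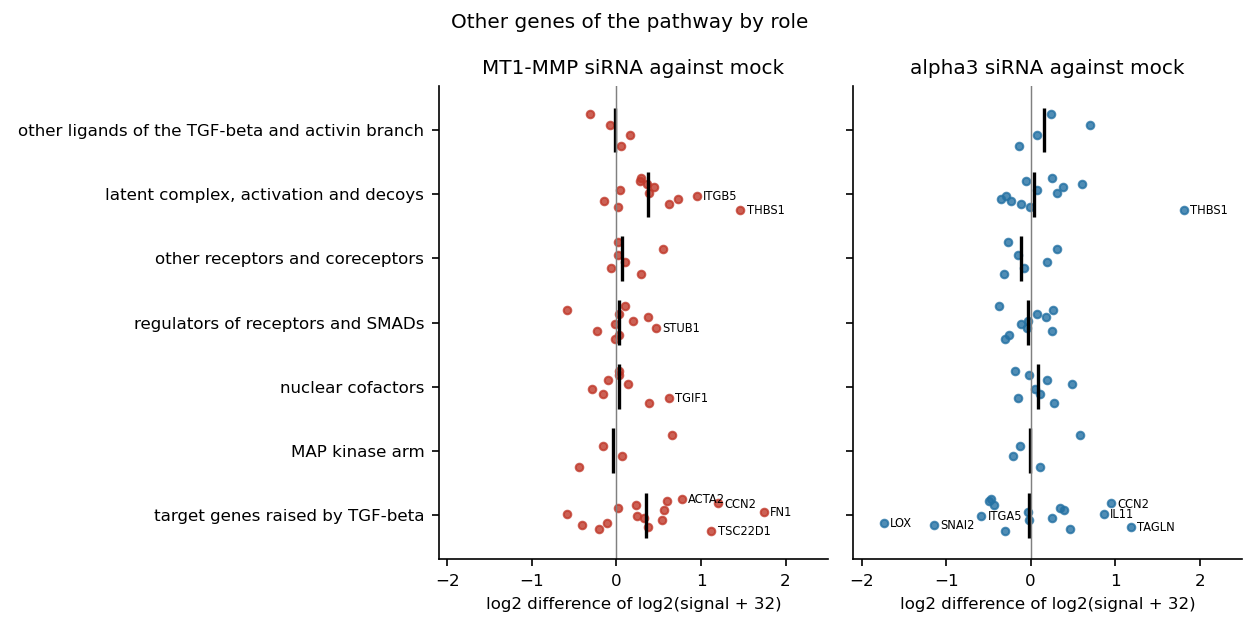
Log2 differences from mock (x axis, on log2(signal + 32)) of the 60 other pathway genes above the filter by role (rows), with MT1-MMP siRNA (left) and alpha3 siRNA (right); points are genes, black bars are list medians, and names mark genes with an unadjusted p under 0.05 whose arrays did not overlap. Genes of the latent complex, activation and decoys, taken as 1 list, have medians of 0.37 (left) and 0.04 (right). The target list has medians of 0.35 (left) and -0.02 (right).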

How the data were processed

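The authors deposited 1 linear intensity for every probe set on each of the 6 arrays. Their scaling gave every array the same trimmed mean (about 250.1 over the central 96% of probe sets). Which software and background method they used is not given in the sources used here. Symbols came from the platform annotation: of 22283 probe sets, 19065 had 1 symbol, 1043 several, 2107 none, and 68 were controls, and the 9 member symbols are current. Signals under 1 were set to 1. Group means were estimated from the 6 arrays together by limma 3.58.1 under R 4.3.3 (lmFit, eBayes with an intensity trend, 3 residual and 5.35 prior degrees of freedom), with each siRNA against mock and the siRNAs against each other. The fit was tested on simulated data with log2 differences larger than any of the members, so recovery of smaller differences was not tested. Figures used matplotlib 3.10.9.

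Named pathway genes are, per siRNA against mock, up to 4 each way with the largest log2 difference among genes that had non-overlapping arrays and an unadjusted p below 0.05, and CCN2, SKIL and PMEPA1. The members and lists were chosen with earlier results of these data known. Of the 80 listed genes, 74 had a singly named probe set, and the others were not analysed here. Alternatives covered normalization, offset, filter, probe sets, variance trend, the arrays fitted and the replicate block.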

Additional observations from a re-analysis of the deposited data

How the results depend on the processing

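The log2 differences of TGFB1, TGFB2, SMAD4 and SMAD7 from mock kept their direction under all alternatives that gave a value. TGFB2 and TGFBR1 did not pass the 60th-percentile filter and have none there. SMAD2 with alpha3 siRNA was 0.0046 after scaling to a common 75th percentile. Leaving out 1 array at a time turned the sign of small differences, the cause of which was not tested: with MT1-MMP siRNA TGFBR1 (-0.25 to 0.13), TGFBR2 (-0.0777 to 0.50), SMAD3 (-0.26 to 0.39) and TGFBI (-0.90 to 0.47), with alpha3 siRNA TGFBR1 (-0.0068 to 0.0426), SMAD2 (-0.10 to 0.0623), SMAD3 (-0.45 to 0.0446) and SKIL (-0.12 to 0.23), and between the siRNAs TGFB2 (-0.0214 to 0.45), TGFBR1 (-0.27 to 0.11) and SMAD3 (-0.0576 to 0.60).

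Between the siRNAs, the members called fell from 1 to 0 with a common 75th percentile (TGFBR2 adjusted p in limma 0.0505), offset 1 (0.0581), no filter (0.0857), probe sets averaged per gene (0.0648) and no intensity trend (0.0690), and were 0 to 1 with an array left out. Against mock they were 0 in every alternative run. Over all genes, 112 were called between the siRNAs, 69 with offset 1, 22 with no filter, 178 with a filter at the 60th percentile, 72 with no intensity trend, and 0 (without MT1-MMP siRNA replicate 1) to 83 with an array left out. With MT1-MMP siRNA against mock, 0 genes were called, 1 with quantile normalization, 3 with offset 1, 6 with the larger offset, 2 with probe sets averaged per gene, 2 with every probe set, 7 with only the 2 groups compared, and 0 to 8 with an array left out. With alpha3 siRNA against mock, 2 genes were called, 1 with quantile normalization, 0 with offset 1, 1 with the larger offset, 1 with no filter, 0 with a filter at the 60th percentile, 1 with every probe set, 1 with only the 2 groups compared, and 0 to 9 with an array left out. Of the 60 other pathway genes, 2 were called between the siRNAs with a filter at the 60th percentile, and 0 to 1 with alpha3 siRNA against mock with an array left out.

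Deviations of same-numbered arrays correlated weakly. The values were -0.176 for mock with MT1-MMP siRNA, -0.175 for mock with alpha3 siRNA, and 0.127 for the 2 siRNA groups. With 2 arrays a group, they cannot settle whether the numbers pair the samples. The replicate block gave 11 genes called against mock for MT1-MMP siRNA, 4 for alpha3 siRNA, and 0 members between the siRNAs (TGFBR2 adjusted p in limma 0.0513). A crossed replicate block, chosen after seeing the data, gave 51 and 7 genes called against mock, among them 1 pathway gene with MT1-MMP siRNA. With 2 arrays a group, their number limits the precision throughout.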
